A study of Mus musculus with 4 samples.

Results

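The 9 genes described here encode enzymes that turn squalene epoxide into cholesterol: Lss, Cyp51, Tm7sf2, Msmo1, Nsdhl, Hsd17b7, Ebp, Sc5d and Dhcr7. They were taken by symbol, with earlier results of these data known, and all 9 were found among the 24344 distinct symbols of the deposited tables. RNA was measured in 4 libraries of aorta from C57BL/6 mice aged 3 weeks, 2 labelled wild type (WT) and 2 labelled knockout (KO) of GGPPS, the enzyme that makes geranylgeranyl diphosphate. The titles name both males and females for each library. The labels used here do not give the deleted cells, a Cre driver, the deleted exon or the number of animals behind a library, so p-values measure the spread between libraries, which may be partly technical.

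Cholesterol synthesis starts with the mevalonate pathway, which makes the isoprenoid farnesyl diphosphate. GGPPS draws on farnesyl diphosphate to make a lipid anchor for small GTPases, while squalene synthase joins it into squalene for sterols. After squalene is oxidised, Lss closes the rings to give lanosterol, and the later enzymes remove methyl groups, move double bonds and reduce them until cholesterol is reached. The transcription factor SREBP2, held back in the endoplasmic reticulum by Insig proteins when sterol is plentiful, is known to drive most genes of this pathway together with the factors NF-Y, which binds the CCAAT box, and Sp1, which binds GC-rich boxes.

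The 9 genes were looked up in RefSeq promoter windows of mouse build GRCm38.p6, which run from 250 bases before to 50 bases after a start site, and all 9 were matched, with 11 windows in all because Dhcr7 has several start sites. The sequences around the CCAAT nearest before a start site are shown because this box was present in all 9 genes, both those that were higher and the one that was lower in knockout. Each line gives 30 bases, 5′ to 3′, read on the strand on which the box reads CCAAT, which is in capitals.
Lss: atgcgagctcggCCAATcagagcatcacca
Cyp51: ccgctgtccgccaCCAATctggtcctgaga
Tm7sf2: ccagcacagtagCCAATcagcgctgggagg
Msmo1: ggagtggggcggaCCAATtacgacaggcga
Nsdhl: gcatgattttgcCCAATgaggctagtcttt
Hsd17b7: cgcgcacctcgaCCAATcaaggctcggccc
Ebp: gaatctgacgaaCCAATcagtacagggatc
Sc5d: gcaggcagccggCCAATcagcagccggcgc
Dhcr7: ggtcacagacgaCCAATcggaagtggattt

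The Msmo1 stretch lies at chr8:64733617-64733646 on the minus strand and the box begins 55 bases before the start site. The Cyp51 stretch lies at chr5:4104710-4104739 on the minus strand, with the box at 29 bases, and the Tm7sf2 stretch at chr19:6067881-6067910, read on the plus strand, with the box at 47 bases. Over the 9 genes the distance ran from 12 bases in Hsd17b7 to 62 bases in Lss. These distances are to RefSeq start sites. For Msmo1, Cyp51, Tm7sf2, Hsd17b7 and Dhcr7 the stretch lies inside the GENCODE gene coordinates given below, so it is not upstream of the GENCODE start. The Nsdhl windows held 4 such matches and the Msmo1 and Hsd17b7 windows 3 each. The Dhcr7 box came from only 1 of its 3 windows.

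CCAAT on either strand was found in 9 of the 11 member windows, against 37.4% of all 32851 windows. Counted by gene, 9 of 9 members held it, against 42.6% of the 9405 tested genes that have a window. Across those genes the share was 42.6% among genes called higher, 42.0% among genes called lower and 42.9% among genes not called, so its presence did not separate the calls in this table. The GC box GGGCGG was in 9 of 9 members against 69.8% of tested genes, and the E-box CACGTG in 3 of 9, Hsd17b7, Sc5d and Dhcr7, against 11.8%. TCACNCCAC, the core of the sterol regulatory element, was in none of the 11 windows and in 1.24% of all windows. These are matches of letters, and none of them was tested for binding.

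Levels are given as FPKM, a unit of fragments scaled for transcript length and for the fragments of the library. Comparisons of levels between genes take that scaling as given, since how the deposited FPKM was made is not stated. Fold changes from the test are on the scale of log2(FPKM + 1), knockout minus wild type. A gene is called when its limma p, adjusted by the Benjamini-Hochberg method over the 12312 genes tested, is under 0.05. All 9 members passed the filter of 1 FPKM in at least 2 libraries through their wild-type libraries alone. Ggps1, the gene of GGPPS, was at 8.96 and 10.6 FPKM in wild-type mice, against 1.18 and 1.07 FPKM in knockout mice, in the direction of the labels.

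Across the 9 enzymes, 7 rose in knockout, Tm7sf2 fell, and Nsdhl was not called. The rises ran from 1.30-fold for Ebp to 3.28-fold for Msmo1 as ratios of mean FPKM. The median log2 fold change of the 9 genes was 0.48, beside 0.03 over all genes tested. Calls were common in this comparison. Of all genes tested, 65.7% were called, 35.2% as higher and 30.6% as lower, so 8 of 9 called members is to be read against that background. The 2 libraries of one genotype lay wholly above or below the other for 9 of 9 members and for 83.1% of all genes tested. The summed FPKM of the 9 genes was 59.9 and 60.2 in wild type and 101.7 and 112.6 in knockout, a ratio of 1.78. Without Msmo1 that ratio was 1.42.

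**Figure D1:**
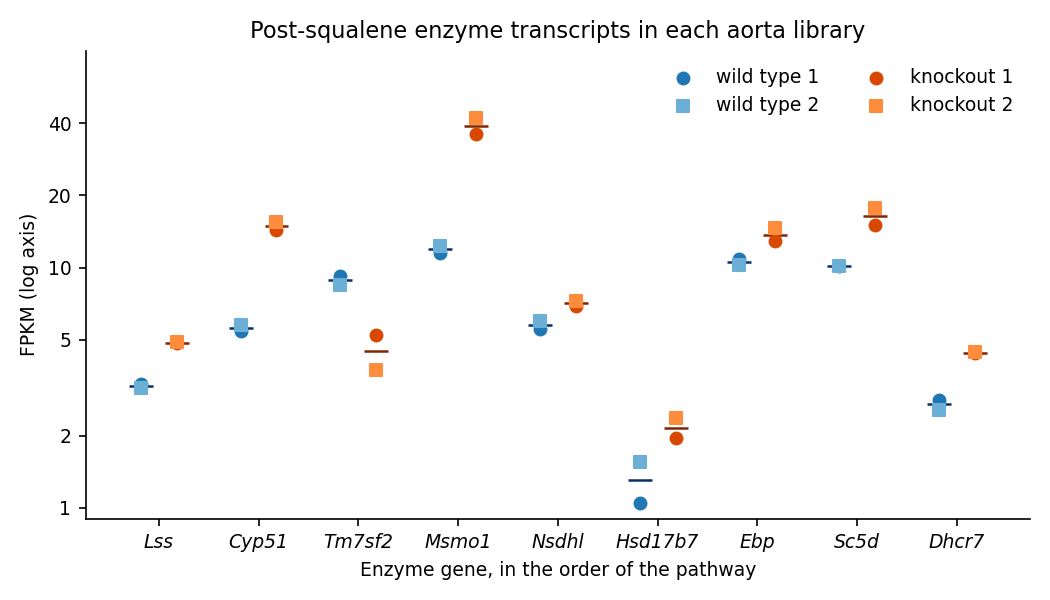
FPKM of the 9 enzyme genes on a log axis, in pathway order, with 1 point per library and a bar at each genotype mean (n = 2). Knockout points lie above wild type for 8 genes and below it for Tm7sf2, with the widest gap at Msmo1 (11.5 and 12.3 against 36.1 and 41.9 FPKM).

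Lss, lanosterol synthase, makes the first sterol of the pathway (mm10 chromosome 10, 76531588 to 76557138, plus strand). It stood at 3.28 and 3.16 FPKM in wild-type aorta against 4.85 and 4.90 FPKM in knockout aorta. Both knockout libraries were higher, and libraries of 1 genotype lay closer together than the genotypes. The rise was 1.52-fold (log2 fold change 0.48, SE 0.12, limma adjusted p = 0.00337). It was 0.83 on the log2 scale with length and GC trends removed and 0.27 with equal column totals. An antisense gene, 4930483K19Rik, shares 381 exon bases with Lss and was at 0.157 FPKM or less in each library.

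Cyp51, lanosterol demethylase, is the cytochrome P450 that takes off the first methyl group (chromosome 5, 4081145 to 4104746, minus strand). It was at 5.43 and 5.76 FPKM in wild-type mice, against 14.4 and 15.5 FPKM in knockout mice. The genotypes were far apart beside the spread within them, and the rise of 2.67-fold was the second largest of the 9 (log2 fold change 1.27, SE 0.12, limma adjusted p = 5.79e-07). Of all genes tested, 866 had a larger log2 fold change. Cyp51 shares 166 exon bases with Akap9 on the opposite strand, and Akap9 was not called (limma adjusted p = 0.482).

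Tm7sf2, a sterol reductase of the endoplasmic reticulum, saturates the bond that Cyp51 leaves behind (chromosome 19, 6062821 to 6068373, minus strand). Its level was 9.22 and 8.50 FPKM in wild-type aorta against 5.26 and 3.77 FPKM in knockout aorta. It was the single member that fell, to 0.509 of the wild-type mean (log2 fold change -0.85, SE 0.14, limma adjusted p = 0.000136), and the fall was called under all 13 alternative settings, between -1.08 and -0.55. Tm7sf2 shares 532 exon bases with Vps51, a gene of a Golgi tethering complex on the same strand, and fragments there may have been counted for neither or either. Vps51 was at 21.6 and 22.2 FPKM in wild-type mice, against 17.2 and 17.7 FPKM in knockout mice, a fall of smaller size (log2 fold change -0.31, limma adjusted p = 0.0213). The ratio of Tm7sf2 to Vps51 within a library was 0.427 and 0.383 in wild type and 0.306 and 0.213 in knockout.

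Lbr, the lamin B receptor, carries the same reductase activity as Tm7sf2. It was at 10.4 and 10.2 FPKM in wild-type aorta against 8.41 and 8.94 FPKM in knockout aorta, and was not called (log2 fold change -0.23, 95% interval -0.48 to 0.026, limma adjusted p = 0.105). It was called lower with equal column totals (-0.47), with median-ratio scaling (-0.26) and with length and GC trends removed (-0.32). Within each library, Tm7sf2 stood at 0.883 and 0.834 of Lbr in wild type and 0.625 and 0.421 in knockout. Neither gene for this step rose.

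The next 3 enzymes work as a complex that strips a pair of methyl groups from one ring carbon: Msmo1 oxidises them, Nsdhl removes the carbon as carbon dioxide and Hsd17b7 reduces the remaining ketone. Msmo1 (chromosome 8, 64718139 to 64733792, minus strand) was at 11.5 and 12.3 FPKM in wild-type mice, against 36.1 and 41.9 FPKM in knockout mice. It had the highest level of the 9 in both genotypes and the largest rise, 3.28-fold (log2 fold change 1.63, SE 0.12, limma adjusted p = 4.04e-08). Of all genes tested, 534 had a larger log2 fold change.

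Nsdhl (chromosome X, 72918557 to 72958514, plus strand) was at 5.54 and 6.00 FPKM in wild-type aorta against 6.92 and 7.29 FPKM in knockout aorta. The libraries did not overlap, yet the difference was not called (log2 fold change 0.26, 95% interval -0.0025 to 0.52, limma adjusted p = 0.0754). Its value was 0.031 with equal column totals and 0.0015 with length and GC trends removed. The upper end of the interval lies below the lower end of the Msmo1 interval, which is 1.38.

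Hsd17b7 (chromosome 1, 169949535 to 169969241, minus strand) had the lowest level of the 9 in both genotypes. It was at 1.05 and 1.55 FPKM in wild-type mice, against 1.95 and 2.36 FPKM in knockout mice, so the wild-type libraries differed from each other by more than the gap to the nearer knockout library. The rise was 1.66-fold (log2 fold change 0.46, SE 0.14, limma adjusted p = 0.0103). The call ended when wild-type library 1 was left out (0.30, adjusted p = 0.16 by limma) and when knockout library 2 was left out (0.37, adjusted p = 0.11). It also ended at equal column totals (0.30, adjusted p = 0.0693) and when no filter was set (adjusted p = 0.0502). Fits with a library left out set 1 library against 2, take a gene's own spread from the other genotype alone, and assume that the lone library varies likewise.

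Within the complex the 3 transcripts therefore changed unequally. Msmo1 was 2.07 and 2.05 times Nsdhl in the wild-type libraries and 5.22 and 5.75 times Nsdhl in the knockout libraries. The ratio of Msmo1 to Hsd17b7 was 10.9 and 7.94 in wild type and 18.5 and 17.7 in knockout. These ratios within a library do not depend on how libraries are scaled. The membrane protein Erg28, listed as 0610007P14Rik and thought to tether this complex, was at 22.4 and 22.2 FPKM in wild-type aorta against 26.2 and 28.6 FPKM in knockout aorta (log2 fold change 0.28, limma adjusted p = 0.0333).

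Ebp, emopamil binding protein, is the isomerase that moves a double bond in the sterol nucleus (chromosome X, 8185329 to 8193512, minus strand). It was at 10.9 and 10.3 FPKM in wild-type mice, against 12.9 and 14.6 FPKM in knockout mice, a rise of 1.30-fold (log2 fold change 0.35, SE 0.12, limma adjusted p = 0.0203). This was the smallest rise among the called members. Leaving out wild-type library 1 (0.38, adjusted p = 0.0878 by limma), wild-type library 2 (0.31, adjusted p = 0.186) or knockout library 2 (0.26, adjusted p = 0.0557) ended the call, the first without a smaller fold change. It also ended at equal column totals (0.10, adjusted p = 0.413) and after length and GC trends were removed (0.067, adjusted p = 0.643).

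Sc5d, sterol desaturase, adds the double bond that makes the direct precursor of vitamin D and cholesterol (chromosome 9, 42251595 to 42264256, minus strand). It was at 10.14 and 10.13 FPKM in wild-type aorta against 15.0 and 17.8 FPKM in knockout aorta. The wild-type libraries were nearly equal and the knockout libraries were both higher, by 1.62-fold on average (log2 fold change 0.64, SE 0.12, limma adjusted p = 0.000377), a value of 0.39 at equal column totals. Dhcr7, the reductase that turns that precursor into cholesterol, is the enzyme mutated in Smith-Lemli-Opitz syndrome (chromosome 7, 143823145 to 143848410, plus strand). It was at 2.82 and 2.57 FPKM in wild-type mice, against 4.39 and 4.46 FPKM in knockout mice, a rise of 1.64-fold (log2 fold change 0.56, SE 0.12, limma adjusted p = 0.00127), which was 0.35 at equal column totals.

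**Figure D2:**
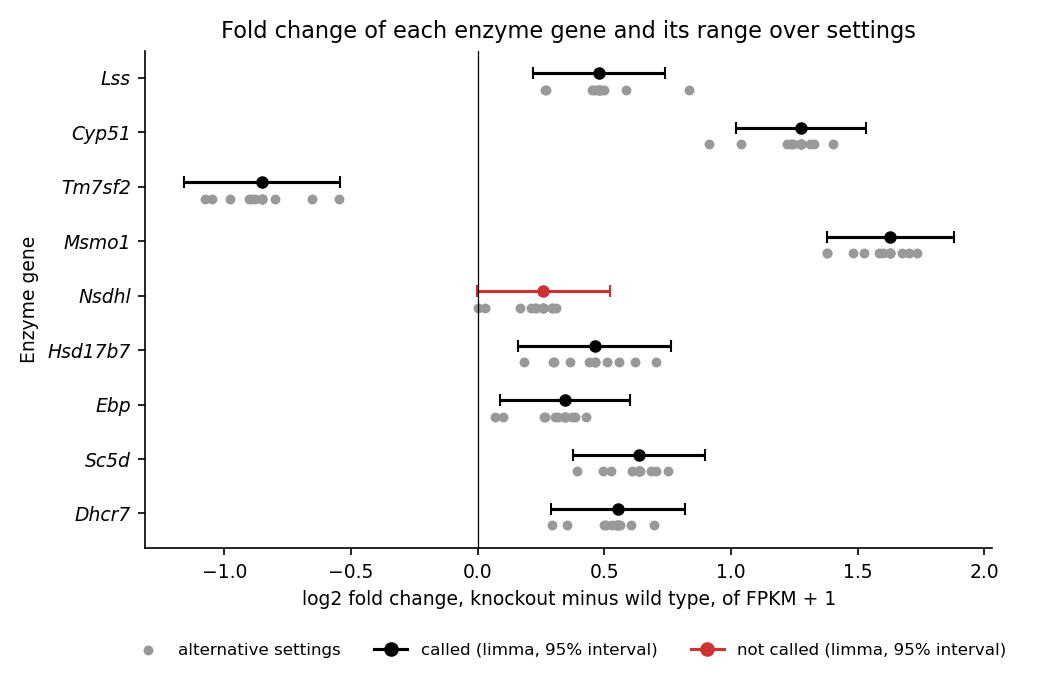
Fold change of each gene on the log2(FPKM + 1) scale, with limma's 95% interval (black, called; red, not called) and its value under each alternative setting (grey; 12 for Lss, Hsd17b7 and Dhcr7, which a filter of 5 FPKM removes, and 13 for the others). Msmo1 and Cyp51 stay at or above 0.91, Tm7sf2 stays at or below -0.55, and the values of Nsdhl and Ebp come down to 0.0015 and 0.067.

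The order of the levels changed with genotype. In wild type the order from the highest level was Msmo1, Ebp, Sc5d, Tm7sf2, Nsdhl, Cyp51, Lss, Dhcr7 and Hsd17b7, and among neighbours in that order Nsdhl and Cyp51 alone had overlapping libraries. In knockout it was Msmo1, Sc5d, Cyp51, Ebp, Nsdhl, Lss, Tm7sf2, Dhcr7 and Hsd17b7. There, Sc5d overlapped with Cyp51, Cyp51 with Ebp, Lss with Tm7sf2 and Tm7sf2 with Dhcr7. Cyp51 thus moved from rank 6 to rank 3 and Tm7sf2 from rank 4 to rank 7.

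Msmo1 made up 19.2% and 20.4% of the summed FPKM of the 9 genes in wild type and 35.5% and 37.2% in knockout. Cyp51 rose from 9.06% and 9.56% to 14.1% and 13.8% of that sum, and Tm7sf2 went from 15.4% and 14.1% to 5.17% and 3.34%. The shares of Ebp, Nsdhl, Sc5d and Lss were lower in both knockout libraries, with smaller moves for Sc5d and Lss. Those of Dhcr7 and Hsd17b7 overlapped between the genotypes. All 36 pairs of members were compared by their FPKM ratio within a library. For 29 pairs the ratios of the genotypes did not overlap, including all 8 pairs with Msmo1, all 8 with Cyp51 and all 8 with Tm7sf2. The share over pairs of all genes tested was not computed, so this count cannot be read as particular to the members. For levels of single genes, 83.1% of all genes tested did not overlap between the genotypes. With 2 libraries against 2, the smallest two-sided p of an exact permutation test on such a ratio is 0.333, and these are descriptions.

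**Figure D3:**
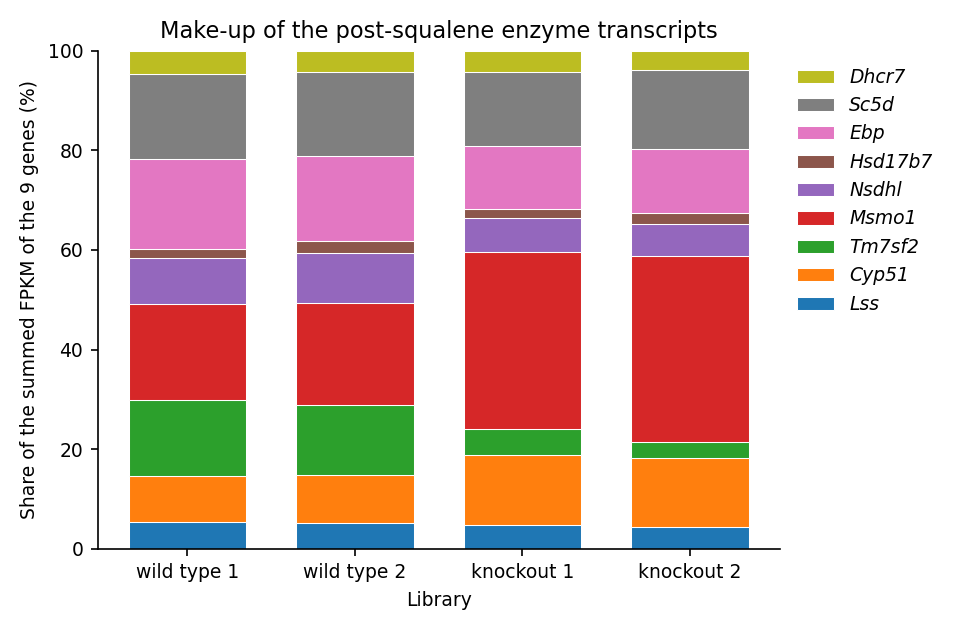
Share of the summed FPKM of the 9 genes taken by each gene in each library, in percent, as stacked bars in pathway order from the bottom. Msmo1 takes 19.2% and 20.4% in wild type and 35.5% and 37.2% in knockout, and Tm7sf2 shrinks from 15.4% and 14.1% to 5.17% and 3.34%.

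Msmo1, Cyp51 and Sc5d are the members that use molecular oxygen. Grouped in this way after their values were seen, these 3 genes summed to 27.1 and 28.2 FPKM in wild-type aorta against 65.5 and 75.2 FPKM in knockout aorta, a ratio of 2.55. The other 6 summed to 32.8 and 32.04 FPKM in wild-type mice, against 36.2 and 37.3 FPKM in knockout mice, a ratio of 1.13. Among these 6, ratios of single genes ran from 0.509 for Tm7sf2 to 1.66 for Hsd17b7. The sum includes the fall of Tm7sf2, from 9.22 and 8.50 FPKM to 5.26 and 3.77 FPKM. The next lowest ratio among the 6 was 1.23, for Nsdhl. Sc5d, at 1.62, lay within that range, and Msmo1 and Cyp51 lay above it.

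The oxygen-using enzymes take electrons from partner proteins. In a list of 8 genes for such partners and associated proteins, 6 rose and 1 fell, with a median log2 fold change of 0.47. The list includes Erg28, named above as a tether and called higher, so its counts do not cover electron donors alone. It also holds Pgrmc1, called higher, and Pgrmc2, not called. Counts in this and the other lists are to be read beside the 35.2% of all genes called higher and the 30.6% called lower. Por, the reductase that feeds Cyp51, was the one that fell, from 158.1 and 167.2 FPKM to 106.7 and 124.0 FPKM (log2 fold change -0.50, limma adjusted p = 0.000817; -0.76 at equal column totals). Cyp51 relative to Por was 0.0343 and 0.0344 in wild type and 0.135 and 0.125 in knockout. Cyb5r3, the reductase of cytochrome b5, which serves Msmo1 and Sc5d, rose 2.26-fold (log2 fold change 1.17, limma adjusted p = 2.04e-07). Its relative Cyb5r1 rose 4.99-fold, and Pgrmc1, a heme protein that binds Cyp51, 1.74-fold, or 0.79 on the log2 scale (0.45 after removal of length and GC trends).

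Upstream, in the mevalonate pathway from Acat2 to Sqle, 7 of 10 genes rose and none fell, with a median of 0.82. Fdps, which makes farnesyl diphosphate, rose 3.39-fold, close to Msmo1 in size. The ratio of Msmo1 to Fdps was 0.396 and 0.492 in wild type and 0.397 and 0.454 in knockout and so overlapped. Idi1, an isomerase of the isoprenoid unit, rose 2.72-fold, Mvd, a decarboxylase, 2.56-fold, and Sqle, which makes squalene epoxide, 2.42-fold (limma adjusted p = 1.1e-06). For Lss, which takes the product of Sqle, the ratio to Sqle within a library was lower in both knockout libraries. It was 0.374 and 0.325 in wild type and 0.230 and 0.208 in knockout. Fdft1, squalene synthase, was not called (log2 fold change 0.18, limma adjusted p = 0.18), and the ratio of Lss to Fdft1 went the other way, from 0.261 and 0.232 in wild type to 0.326 and 0.327 in knockout.

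Relatives of the members were listed as 5 genes, of which 4 were analysed here, and 2 rose. One of these, Tmem97, a relative of Ebp known as the sigma-2 receptor, rose 2.81-fold from 10.001 and 9.33 FPKM to 28.4 and 25.8 FPKM (log2 fold change 1.40, limma adjusted p = 1.6e-07). The ratio of means for Ebp itself was 1.30, and the difference between Tmem97 and Ebp was not tested.

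Of the genes for sterol sensing and uptake, 7 of 15 tested rose and 2 fell, with a median of 0.25, beside 35.2% higher and 30.6% lower over all genes tested. Insig1 rose 2.55-fold, from 13.9 and 15.0 FPKM to 35.7 and 37.9 FPKM. Npc2, which carries sterol out of lysosomes, and Scarb1, the receptor for high-density lipoprotein, rose 1.96-fold and 2.05-fold. Srebf2, the gene of SREBP2, was at 35.0 and 33.7 FPKM in wild-type aorta against 34.0 and 32.2 FPKM in knockout aorta and was not called (log2 fold change -0.052, 95% interval -0.28 to 0.17, limma adjusted p = 0.677). Its direction changed with the setting: it was called lower with equal column totals (-0.31) and higher with length and GC trends removed (0.29). The 2 that fell were Mylip, a ubiquitin ligase (log2 fold change -0.64), and Mbtps1, a protease that releases SREBP2 (-0.48). The Mbtps1 value was -0.12 with length and GC trends removed and was then not called (adjusted p = 0.387). It was -0.31 without knockout library 1 and -0.74 at equal column totals.

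Of the 5 tested genes of sterol efflux and esterification, 3 fell and 1 rose, with a median of -0.43. Apoe fell from 585.3 and 623.7 FPKM to 220.5 and 279.9 FPKM and the exporter Abca1 to 0.564 of its wild-type mean (log2 fold change -0.60). Removal of length and GC trends ended the Abca1 call (-0.15, limma adjusted p = 0.309). Nr1h3, the oxysterol receptor that drives Abca1, fell by 0.43 on the log2 scale. Leaving out wild-type library 2 (-0.26, limma adjusted p = 0.27) or knockout library 1 (-0.36, limma adjusted p = 0.0744) ended this call, as did dropping the filter (limma adjusted p = 0.0687), and it was -0.65 at equal column totals. Soat1, which esterifies cholesterol, rose 1.52-fold (log2 fold change 0.51). That call ended when wild-type library 2 was left out (0.43, limma adjusted p = 0.0619), and the value was 0.84 after removal of length and GC trends and 0.29 at equal column totals. Among 11 genes of fatty acid synthesis, 6 rose and 1 fell, with a median of 0.35. The desaturases Scd1 and Scd2 rose 2.11-fold and 2.12-fold, and the elongase Elovl6, which passed the filter through its knockout libraries, 4.38-fold. Fads2, another desaturase, fell (log2 fold change -0.32), or -0.57 at equal column totals. Dropping the filter (limma adjusted p = 0.0716) or leaving out wild-type library 1 (-0.40, limma adjusted p = 0.0564), wild-type library 2 (-0.24) or knockout library 1 (-0.20) ended its call.

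**Figure D4:**
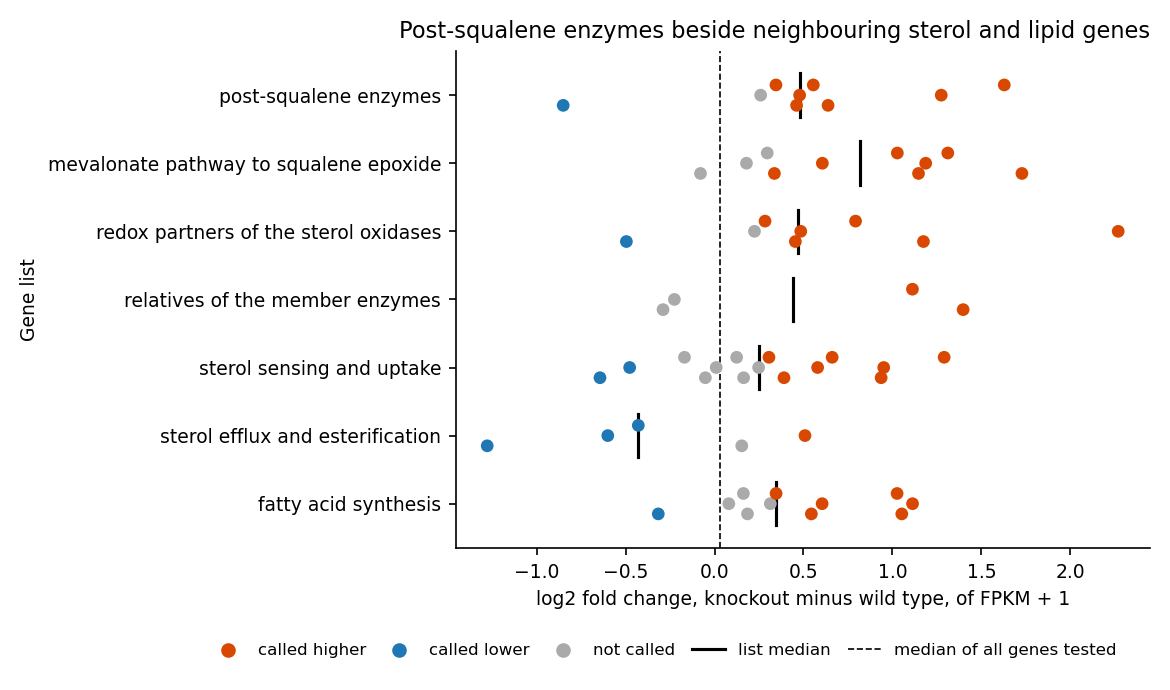
Log2 fold change of FPKM + 1 for the 9 enzymes and for each list of neighbouring genes, 1 point per tested gene (orange, called higher; blue, called lower; grey, not called), with the list median as a bar and the median of all genes tested, 0.03, as a dashed line. The median is 0.82 for the mevalonate pathway, 0.48 for the 9 enzymes and -0.43 for efflux and esterification.

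Cell type markers moved in the same libraries. Summed FPKM of 10 contractile smooth muscle markers was 21009 to 23385 in wild type and 4966 to 6587 in knockout, and 10 of 10 fell. Summed FPKM of 13 macrophage markers was 88.8 to 90.4 and 556.5 to 660.3, and that of 8 leukocyte markers 6.81 to 7.12 and 111.9 to 144.3. The 8 markers of dividing cells summed to 9.44 to 12.04 and 101.5 to 102.6 FPKM. Of these 3 lists 12, 8 and 8 genes were called higher, but 2, 6 and 3 genes, Ptprc and Cenpf among them, passed the filter only with the help of knockout libraries, so these counts are partly fixed by the filter. For endothelium, 9 of 9 tested markers fell, from a sum of 299.8 to 302.3 down to 97.2 to 114.3 FPKM. The 8 fibroblast markers, 2 higher and 6 lower, summed to 1648 to 1887 FPKM in wild type and 1960 to 2212 FPKM in knockout. Col1a1 alone gave most of each fibroblast sum, with FPKM of 1329 and 1046 (wild type), then 1850 and 1575 (knockout). Lum was the other marker that rose, so the higher sum did not reflect the 6 markers that fell. Of 8 adipocyte markers, 6 stayed below the filter, Adipoq and Plin1 among them. Of 8 Schwann cell markers, 4 did so, Sox10 among them. Those lists summed to 152.0 to 198.1 and 158.4 to 182.3 FPKM in wild type and 76.8 to 94.0 and 109.7 to 124.1 FPKM in knockout, and most of each sum came from a single gene, which was Fabp4 for adipocytes (142.4 and 184.1 FPKM in wild type). Of the 4 Schwann cell markers tested, 3 fell and S100b rose. Of 5 steroidogenic markers 4 stayed below it, with Hsd3b1 listed at 0 in each library, and the list summed to 1.35 to 1.81 and 1.22 to 1.42 FPKM. The part of these markers in the changes of the 9 enzymes was not tested, and in bulk tissue a change in the number of cells of a type and a change in RNA per cell cannot be told apart.

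FPKM columns summed to 515927 and 520478 in wild type and to 611767 and 632918 in knockout. With these totals made equal, the median log2 fold change of all genes moved from 0.03 to -0.20 and the calls from 4331 higher and 3762 lower to 3095 higher and 5618 lower. At that scaling 5 of the 9 enzymes remained called higher: Lss, Cyp51, Msmo1, Sc5d and Dhcr7. Tm7sf2 remained lower.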

How the data were processed

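Poly(A)-selected RNA was sequenced from 4 aorta libraries, per the labels' protocols, with groups taken from the genotype label. The deposited values are FPKM, per the file headers, which misspell the unit. Tools listed in the submitters' processing notes are featureCounts 1.5.0-p3, HISAT2 2.0.5 and DESeq2 1.16.1, with the build mm10. How FPKM was made, and whether strand was used, is not given in these sources. Among genes under 0.3 FPKM no common step was found (at most 0.32% of genes shared the modal ratio of a library pair), so depth is unknown and no count test was run.

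The fit used R 4.3.3 and limma 3.58.1 with the trend on mean log level, over log2(FPKM + 1) of genes reaching 1 FPKM in 2 or more libraries. Date-like symbols on several rows were left out. Of 13.4 total degrees of freedom, 2 came from a gene's own libraries. The members and gene lists were chosen with earlier results of these data known. Named genes were the members, Ggps1, Lbr, Insig1, Srebf2, up to 4 called genes per pathway list by smallest p, and called genes against a list's direction; some named genes are not reported here. 0610007P14Rik, Vps51, Akap9, Fdft1, Pgrmc2 and single marker genes were named after their values were seen. Coordinates are from GENCODE M21 (mm10) and promoters from RefSeq GRCm38.p6. In GENCODE transcripts, no other gene matched a member over 200 bases at 90% identity.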

Additional observations from a re-analysis of the deposited data

How the results depend on the processing

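The 13 alternatives were other pseudocounts, filters, scalings and limma settings, removal of length and GC trends, and each library left out in turn. Of 114 values of single members under them, 105 kept their direction and side of the threshold, 9 lost the call (5 of Ebp, 4 of Hsd17b7) and none reversed. The median of the 9 members, 0.48, was 0.68 with a pseudocount of 0.1, 0.27 with a pseudocount of 5 and 0.30 with equal column totals, and 0.47 to 0.56 with a library left out. Members called higher numbered 4 with a filter of 5 FPKM, under which 6 were tested, and 5 to 7 with a library left out. Of 360 values of the other named genes, 345 kept their side, 10 lost the call, 4 gained it and 1 reversed, Srebf2 at 0.29 with length and GC trends removed. The causes were not tested. No paired analysis was possible because the labels give no replicate numbers shared between the genotypes. Precision rests on 2 libraries per genotype, since depth is unknown.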

Other observations

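Nsdhl and Ebp, the members on the X chromosome, had the smallest ratios of knockout to wild type among the 8 members with a positive fold change, 1.23 and 1.30. The median log2 fold change was -0.11 over 385 tested X-linked genes and 0.03 over 11373 autosomal genes. Xist, which female cells express, was at 8.45 and 30.05 FPKM in wild-type mice, against 21.9 and 35.2 FPKM in knockout mice, and the Y-linked Ddx3y at 19.3 and 9.50 FPKM in wild-type aorta against 11.4 and 9.89 FPKM in knockout aorta, so sex-linked genes differed between libraries of 1 genotype. Their part in the values of Nsdhl and Ebp was not tested.

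Knockout library 2 had higher FPKM than knockout library 1 for 8 of the 9 members, with Tm7sf2 lower, and for 70.3% of all genes tested. Its macrophage marker sum was lower, 556.5 against 660.3 FPKM, and its contractile smooth muscle sum higher, 6587 against 4966 FPKM.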
